A study of Mus musculus with 6 samples.

Results

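The forebrain and eye field transcription factors examined here were *Six3*, *Six6*, *Rax*, *Lhx2*, *Hesx1*, *Pax6*, *Vax1*, *Vax2* and *Emx2*. They were taken by symbol from a table of read counts for 24421 genes, so they make up 9 of 24421 rows. The rule used symbols and no measured value, but the set was picked with earlier results of these data known. The libraries came from mouse embryo heads at E9.0. There were 3 wild-type libraries (WT, labelled *SnrpB* +/+) and 3 libraries from *Snrpb* ncc+/- embryos, called mutant below and labelled *SnrpB*+/-. Each library was a pool of 2 heads of 1 genotype, so the spread between libraries is a spread between pools.

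Mutant embryos carried 1 conditional *Snrpb* allele, in which loxP sites surround exons 2 and 3, together with the *Wnt1-Cre2* transgene. *Snrpb* encodes the core spliceosome proteins SmB and SmB'. The study used *Wnt1-Cre2* to delete 1 *Snrpb* allele in the neural tube and the neural crest. Cells of the surface ectoderm, mesoderm and gut of these heads therefore kept both *Snrpb* alleles. The share of forebrain and eye field cells that carried the deletion was not measured here. The levels below are thus not those of mutant cells alone. The labels give the strain as C57BL/6 and also name CD1, and the study describes a mixed CD1; C57BL/6J background. The study's control littermates at E9.0 included embryos with the Cre transgene. Whether the embryos in the WT pools carried it is not given in the sources used here. The comparison asks whether the genes that pattern the front of the head were expressed at other levels in the mutant heads.

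All 9 genes encode homeodomain proteins. In the early embryo the eye field is a single domain at the front of the neural plate, set apart by a network of such factors, and it splits into paired optic vesicles that bulge from the forebrain. *Six3*, *Rax*, *Lhx2*, *Pax6* and *Six6* belong to that network. *Six3* and *Hesx1* also act in the anterior forebrain and the pituitary primordium, *Emx2* in the dorsal telencephalon, and *Vax1* and *Vax2* in the optic stalk and ventral retina. *Pax6* is in addition expressed in the lens and nasal ectoderm, in the dorsal telencephalon and in the ventral hindbrain and spinal cord.

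The 9 genes include close relatives, *Six3* with *Six6* and *Vax1* with *Vax2*. The homeoboxes of *Six3* and *Six6*, the 180 bases that code for the DNA-binding homeodomain, are shown as a conserved stretch of 2 relatives that are both eye field genes. Each is written 5′ to 3′ on the coding strand from Gencode M21 transcripts (mm10), and capitals mark the bases that differ from the relative.
Six3: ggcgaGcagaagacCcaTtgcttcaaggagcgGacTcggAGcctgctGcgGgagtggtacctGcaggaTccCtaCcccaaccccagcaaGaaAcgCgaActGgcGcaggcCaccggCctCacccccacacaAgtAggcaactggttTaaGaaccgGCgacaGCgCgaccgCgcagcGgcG
Six6: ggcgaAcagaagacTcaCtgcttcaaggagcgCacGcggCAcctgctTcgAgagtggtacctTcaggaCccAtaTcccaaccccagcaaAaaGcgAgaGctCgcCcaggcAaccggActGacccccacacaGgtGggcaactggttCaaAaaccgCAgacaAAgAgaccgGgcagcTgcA

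The *Six3* and *Six6* homeoboxes differed at 34 bases (81.1% identical), and the longest run they shared was 14 bases. Across whole transcripts, no stretch of 100 bases, the read length, was shared on the same strand between any of the 9 genes and a transcript of another gene. A full-length read within an annotated transcript of a relative thus had no identical match in the other. Reads made shorter by trimming were not covered by this check.

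Overlap with genes on the opposite strand was the larger source of doubt. The study made its libraries with a stranded kit, but the sources used here do not say whether the counting kept reads of each strand apart. Exon positions below are those of Gencode M21, a later release than the study counted with, so the overlaps at counting may have differed. *Six3* lies at chr17:85613608-85629302 on the plus strand, and the long non-coding *Six3os1* overlaps its 5′ part from the minus strand, sharing 106 of its 5446 exon bases. The antisense *Gm28528*, which had no row in the count table, shares another 168. *Six3os1* was read at 6.35 to 8.58 times the *Six3* level in the 6 libraries, so the value of *Six3* is uncertain to the extent that the counting ignored strand. *Rax* (chr18:65928277-65939787, minus strand) shares 1604 of 5846 exon bases with the antisense *Raxos1*, which had no row in the count table. At 27.4% this was the largest share among the 9 genes, so the value of *Rax* is uncertain in the same way. *Emx2* (chr19:59458372-59465357, plus strand) shares 264 of 3002 exon bases with *Emx2os*, read at 0.0549 to 0.115 times its level, and *Six6* (chr12:72939892-72944899, plus strand) shares 192 of 4009 with *4930447C04Rik*, read at 0.0822 to 0.138 times its level. *Lhx2* (chr2:38339281-38369733, plus strand), *Hesx1* (chr14:26994416-27002329, plus strand), *Pax6* (chr2:105668900-105697364, plus strand), *Vax1* (chr19:59166187-59170056, minus strand) and *Vax2* (chr6:83711264-83738313, plus strand) shared no exon base with a gene on the other strand.

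The libraries held 36378803 to 58946111 counts in WT and 42398206 to 74909774 in mutants. Values below are CPM, that is counts relative to the library total, scaled by TMM factors that lay between 0.9908 and 1.015. *Snrpb* itself was at 430, 438 and 414 CPM in WT and at 436, 412 and 430 CPM in mutants (log2 fold change 0.00 ± 0.04 SE, edgeR adjusted p = 0.99). Its row pools deleted with remaining exons and targeted with untargeted cells, so it is a weak check of the labels. In edgeR's quasi-likelihood test, 1 gene, *A3galt2*, of the 15584 tested passed an adjusted p of 0.05 (0.00642%), while DESeq2 called 84 of 12908 (0.651%).

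None of the forebrain and eye field factors passed the test for a difference between WT and mutant heads. All 9 were detected in all 6 libraries, and 8 of 9 passed the filter on low counts and were tested. Of these 8, 0 passed an adjusted p of 0.05 in edgeR or in DESeq2, but DESeq2 gave *Vax1* no adjusted p. At an unadjusted p under 0.05 the count was also 0 of 8 with both tools, where edgeR reached that level for 8.43% of all tested genes. The groups overlapped for each of the 8, whereas 15.2% of all tested genes had WT and mutant values that did not overlap. With heads as starting material, fewer cells of a type and less RNA per cell cannot be told apart, and each value is a transcript's share of its library's counts.

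**Figure D1:**
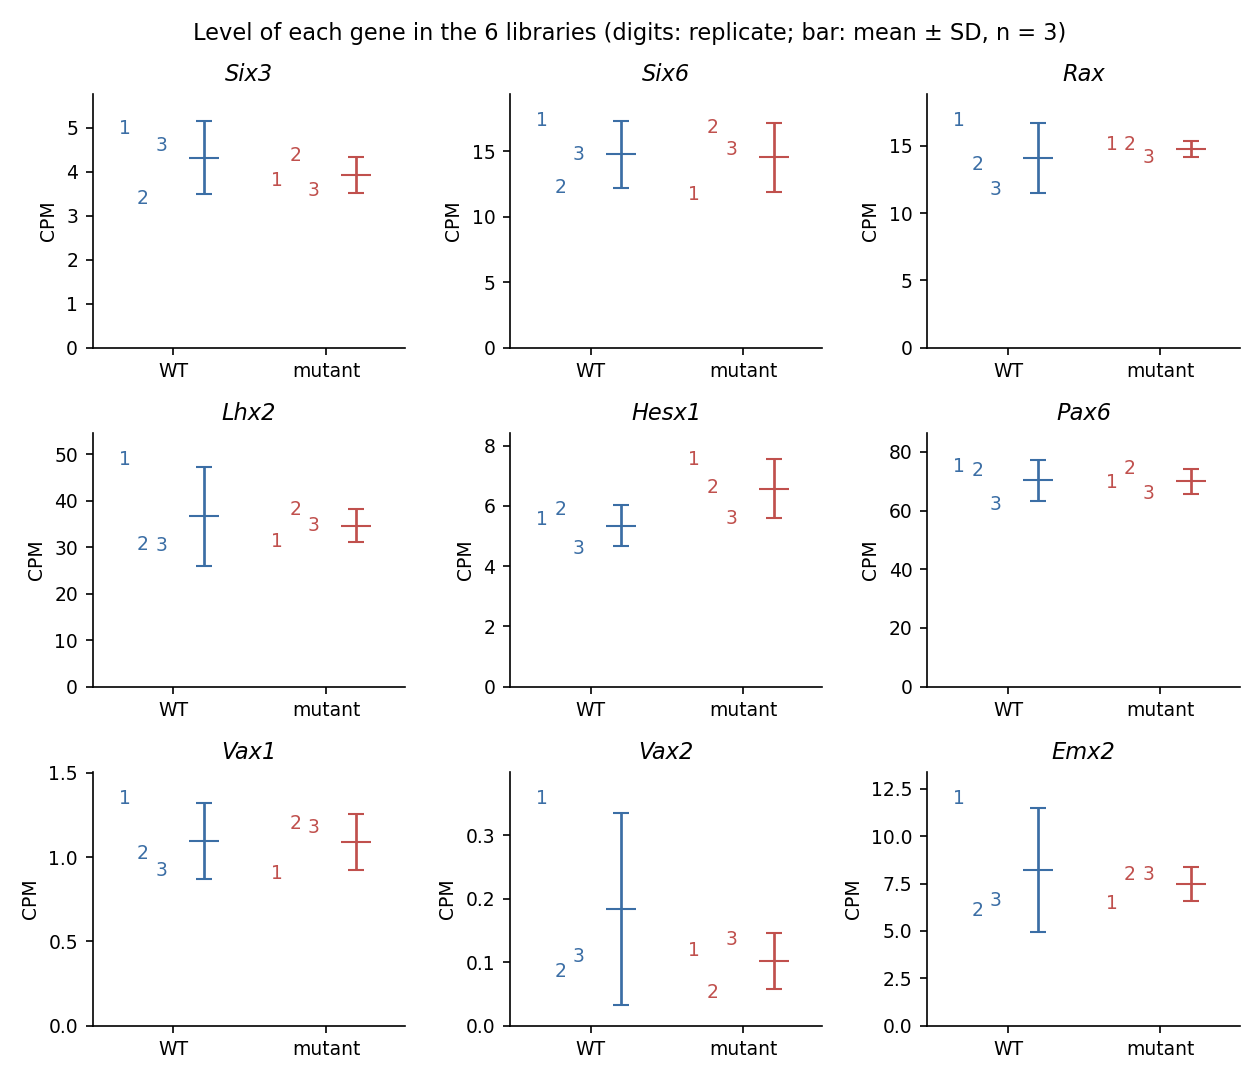
CPM (vertical axes, each from 0) of the 9 factors in WT (blue) and mutant (red) libraries, with the replicate number as the plotting symbol and the mean ± SD (n = 3) beside it. WT replicate 1 gave the highest value for each gene except *Hesx1*, and the WT and mutant values overlapped for all 9 genes.

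Among the eye field genes, *Pax6*, the paired-class factor needed for lens and retina formation, had 74.9, 73.7 and 62.1 CPM in WT and 69.7, 74.3 and 65.9 CPM in mutants. Both groups averaged about 70 CPM, with an SD of 7.07 CPM over the 3 WT pools and of 4.20 CPM over the 3 mutant pools. The log2 fold change of mutant over WT was -0.01 ± 0.08 (SE, edgeR adjusted p = 0.991). Its 95% interval, 0.881 to 1.13-fold, was the narrowest of the 8 tested genes, although a fit with a Y-linked covariate gave -0.19 on the log2 scale, outside that interval. *Pax6* also had the most counts behind it, 2298 to 5648 per library.

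*Lhx2*, a LIM-homeodomain factor without which the optic vesicle stops before forming an optic cup, had 48.8, 30.6 and 30.4 CPM in WT and 31.1, 38.1 and 34.6 CPM in mutants. WT replicate 1 stood well above the other 5 libraries, and the 2 remaining WT libraries were the lowest of all 6. The log2 fold change was -0.07 ± 0.21 (SE, edgeR adjusted p = 0.944). Without WT replicate 1 it was 0.18.

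*Rax*, which the eye field needs in order to form, was at 16.9, 13.6 and 11.8 CPM in WT and at 15.1, 15.1 and 14.1 CPM in mutants. The mutant values lay within the WT range, with an SD of 0.591 CPM against 2.58 CPM in WT. Its log2 fold change was 0.07 ± 0.12 (SE, edgeR adjusted p = 0.898). *Six6*, a *Six3* relative active in the optic vesicle, ventral forebrain and pituitary, had 17.3, 12.2 and 14.8 CPM in WT and 11.7, 16.8 and 15.1 CPM in mutants. Here both groups spread alike, from about 12 to 17 CPM, and the fold change was -0.01 ± 0.17 on the log2 scale (SE, edgeR adjusted p = 0.994).

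*Six3*, which keeps posteriorizing Wnt signals out of the anterior forebrain, had 5.00, 3.39 and 4.59 CPM in WT and 3.81, 4.38 and 3.58 CPM in mutants. All mutant values lay between the lowest and the highest WT value. The log2 fold change was -0.13 ± 0.16 (SE, edgeR adjusted p = 0.864), with a 95% interval of 0.707 to 1.18-fold. It was -0.01 without WT replicate 1 and -0.29 without WT replicate 2. Its antisense neighbour *Six3os1* had 39.0, 28.3 and 29.2 CPM in WT and 32.4, 34.7 and 30.7 CPM in mutants (log2 fold change 0.02 ± 0.12 SE, edgeR adjusted p = 0.978), so neither transcript of the locus passed the test.

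*Hesx1*, a repressor required for the forebrain, eyes and pituitary, gave the largest difference among the 8 tested genes and the only profile in which WT replicate 1 was not the highest library. Its levels were 5.55, 5.89 and 4.59 CPM in WT and 7.53, 6.60 and 5.58 CPM in mutants. Mutant replicates 1 and 2 were above every WT library, and mutant replicate 3 lay between WT replicates 2 and 1. The log2 fold change was 0.29 ± 0.14 (SE), with a 95% interval of 0.977 to 1.53-fold. The unadjusted p was 0.073 and the edgeR adjusted p was 0.631, so the difference did not pass. It stayed positive in every alternative fit, between 0.02 with a Y-linked covariate and 0.39 with 1 library left out.

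*Emx2*, a dorsal telencephalic gene, had 11.98, 6.10 and 6.59 CPM in WT and 6.46, 7.998 and 7.99 CPM in mutants. WT replicate 1 was well above the rest, and the other two WT libraries were at the level of the lowest mutant library. The log2 fold change was -0.12 ± 0.27 (SE, edgeR adjusted p = 0.921), and it turned to 0.24 without WT replicate 1. Its 95% interval, 0.592 to 1.43-fold, was the widest of the 8.

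The optic stalk genes had the fewest counts. *Vax1*, needed for optic nerve and ventral forebrain development, was at 1.35, 1.02 and 0.919 CPM in WT and at 0.900, 1.20 and 1.17 CPM in mutants. These values rested on 34 to 91 counts per library, and the groups lay on top of each other (log2 fold change 0.01 ± 0.21 SE, edgeR adjusted p = 0.995). *Vax2*, which helps give the ventral retina its identity, had 13, 5 and 4 counts in WT and 5, 4 and 9 counts in mutants. At 0.0526 to 0.357 CPM it was left out by the filter on low counts before the edgeR test. The groups overlapped, and DESeq2, run without that filter, gave a log2 fold change of -0.84 with an unadjusted p of 0.342.

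**Figure D2:**
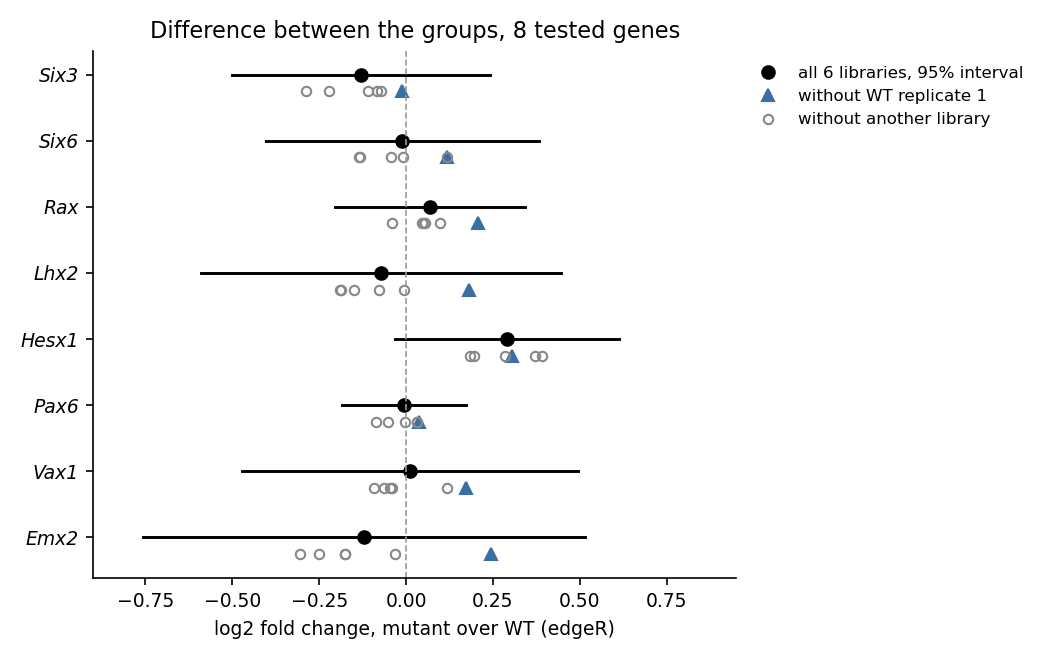
Log2 fold change of mutant over WT (horizontal axis, edgeR) for the 8 tested factors. Black points with lines are the fit to all 6 libraries with its 95% interval, blue triangles the fit without WT replicate 1, and open circles the fits without another library. Every interval holds 0, and *Lhx2* and *Emx2* move from below 0 to 0.18 and 0.24 without WT replicate 1.

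As a set, the 8 tested genes were centred on no change. Of them, 3 were higher and 5 lower in mutants, with a median log2 fold change of -0.01 against 0.00 over all tested genes. The median of the absolute log2 fold changes was 0.07 for the factors and 0.08 for all tested genes. Without WT replicate 1 the factors' median was 0.18, and in the other fits with 1 library left out it lay between -0.10 and 0.03. The sum of the 9 genes was 182, 147 and 136 CPM in WT and 146, 165 and 148 CPM in mutants.

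In the median, the spread between pools was wider for these genes than over all tested genes. The sets were not matched by level or count, on which this measure also depends. The median coefficient of variation of the 8 tested genes was 18.8% in WT and 11.1% in mutants, and the same over all tested genes was 7.55% in WT and 5.65% in mutants. The widest WT spreads were those of *Emx2* (39.7%) and *Lhx2* (28.9%), and the narrowest that of *Pax6* (10.1%). In mutants *Rax* had the narrowest spread at 4.00% and *Six6* the widest at 18.01%. WT values varied more than mutant values for 6 of 8 factors, which was so for 64.3% of all tested genes.

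In the WT group 1 library stood apart. WT replicate 1 was the highest of the 6 libraries for 7 of the 8 tested factors, compared with 24.7% of all tested genes. Centred on each gene's mean log2 CPM, the factors averaged 0.28, -0.14 and -0.16 in WT replicates 1 to 3 and -0.08, 0.12 and -0.02 in the mutant replicates, so WT replicate 1 and the other WT libraries stood on opposite sides of the mutants.

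WT replicate 1 also stood apart in genes of other regions and cell types. The 6 hindbrain genes, among them *Egr2* and *Hoxa2*, summed to 22.2 CPM in that library, 40.4 and 53.0 CPM in the remaining WT pools and 43.8 to 57.1 CPM in mutants, and all 6 were lowest there. The 6 cardiac genes summed to 13.5 CPM in WT replicate 1, to 64.9 and 83.1 CPM in the remaining WT pools and to 37.3 to 137 CPM in mutants, again with all 6 lowest in WT replicate 1. The 5 visceral endoderm genes, among them *Afp* and *Ttr*, summed to 26.8 CPM there, 5.89 and 6.78 CPM in the remaining WT pools and 6.09 to 7.44 CPM in mutants, and all 5 were highest there. No gene of these lists was at 0 in any library. The part that the tissue content of the pools played in the levels of the forebrain and eye field factors was not tested.

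**Figure D3:**
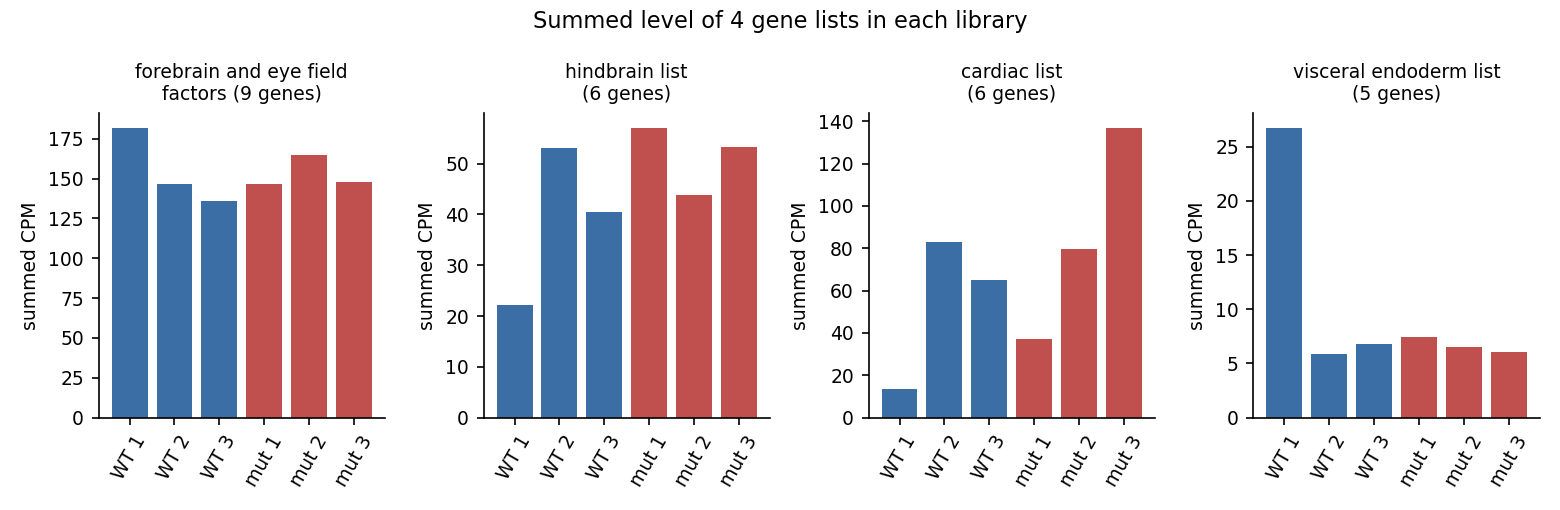
Summed CPM (vertical axes, each from 0) of the 9 factors and of the hindbrain, cardiac and visceral endoderm lists in each WT (blue) and mutant (red) library. WT replicate 1 was highest for the factors (182 CPM) and the visceral endoderm genes (26.8 CPM) and lowest for the hindbrain (22.2 CPM) and cardiac genes (13.5 CPM).

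Divided by exon length, so that levels can be set against each other, *Lhx2* ranked first, with 8.33 ± 2.40 CPM per kb of annotated exon in WT and 7.88 ± 0.798 in mutants (SD, n = 3). *Pax6* followed at 6.01 ± 0.605 in WT and 5.98 ± 0.360 in mutants, and *Lhx2* was above it in 6 of 6 libraries. *Hesx1* came after it, at 4.28 ± 0.539 in WT and 5.27 ± 0.781 in mutants, but in mutant replicate 1 it was above *Pax6*, at 6.03 against 5.96 CPM per kb. *Six6* was at 3.69 ± 0.637 and 3.62 ± 0.653 CPM per kb, overlapping *Hesx1* in WT, while in mutants every *Hesx1* value lay above every *Six6* value. The next pair, *Emx2* and *Rax*, overlapped in both groups, at 2.74 ± 1.09 and 2.41 ± 0.442 in WT and 2.49 ± 0.294 and 2.53 ± 0.101 in mutants. *Vax1* had 0.981 ± 0.199 CPM per kb in WT and 0.976 ± 0.148 in mutants, followed by *Six3* with 0.795 ± 0.154 and 0.721 ± 0.0756. *Six3* and *Vax1* overlapped in WT, and in WT replicate 3 *Six3* was the higher, at 0.844 against 0.823 CPM per kb. *Vax2* came last at 0.148 ± 0.121 and 0.0822 ± 0.0352. The lengths pool the exons of all annotated transcripts of a gene, which lowers this measure for genes with long alternative ends such as *Pax6* (11694 exon bases, against 1248 for *Hesx1*).

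The profiles across the 6 libraries were most alike for *Lhx2* and *Emx2*, with a root mean square difference of 0.10 between their centred log2 CPM. *Rax* and *Pax6* came next with 0.10, and *Lhx2* and *Vax1* with 0.11. The ratio of *Rax* to *Pax6* CPM had the narrowest range of the 28 pairs, 0.28 on the log2 scale from the lowest to the highest library. *Hesx1* and *Emx2* were least alike, with a difference of 0.42 and a ratio that ranged over 1.33 on the log2 scale. Genes that share a library share its depth and tissue content, so likeness here is a description of these 6 pools.

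Among 13139 genes with a mean of at least 1 CPM, those closest to the factors' mean profile were *Pde8b*, *Wnt5b*, *Cend1*, *Rnft2* and *Edaradd*, at root mean square differences of 0.03 to 0.04. Their high value in WT replicate 1 follows from this choice, since the factors' mean profile was highest in that library. *Wnt5b*, a Wnt ligand, for example had 29.9, 23.3 and 21.4 CPM in WT and 23.2, 25.9 and 24.9 CPM in mutants.

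Of the genes within 5 kb of a factor, *Elp4* had the smallest p-value. It encodes an Elongator subunit, lies downstream of *Pax6* on the opposite strand, and is known for introns that hold *Pax6* enhancers. It was at 48.3, 44.7 and 48.7 CPM in WT and at 42.4, 40.4 and 41.7 CPM in mutants, with every mutant library under every WT library. The log2 fold change was -0.19 ± 0.05 (SE, unadjusted p = 0.00586), and the edgeR adjusted p of 0.433 did not pass. *Pax6os1*, *Vax2os* and *Atp6v1b1* had fewer than 20 counts in each library and were not tested. *Emx2os* had 0.989, 0.494 and 0.757 CPM in WT and 0.355, 0.526 and 0.872 CPM in mutants (edgeR adjusted p = 0.865), and *4930447C04Rik* had 1.00 to 2.01 CPM in the 6 libraries (edgeR adjusted p = 0.972).

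The factors were set beside 58 other genes of the forebrain, eye and anterior placodes, of which 51 were tested. None of the 51 passed an adjusted p of 0.05 in edgeR or in DESeq2. At an unadjusted p under 0.05, 1 was higher and 3 were lower in mutants, where 8.43% of all tested genes reached that level. Their median log2 fold change was -0.06, with 18 higher and 33 lower, and the groups did not overlap for 5 of 51, all lower in mutants, against 15.2% of all tested genes in either direction.

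The 10 tested genes of the telencephalon and anterior neural ridge had a median of -0.10, with 2 higher and 8 lower. Their most abundant members were *Nr2f1*, a nuclear receptor of the cortex and eye, at 80.3 ± 8.49 CPM in WT and 78.2 ± 2.03 CPM in mutants, and *Sp8*, at 47.8 ± 4.44 and 45.4 ± 3.84 CPM (edgeR adjusted p = 0.912 and 0.837). The 8 tested genes of the anterior neural plate and diencephalon had the lowest median, -0.26, with 1 higher and 7 lower, and 5 of the 8 were highest in WT replicate 1. *Otx2*, a gene of the anterior neural plate, was at 141, 110 and 111 CPM in WT and at 117, 112 and 105 CPM in mutants (log2 fold change -0.12 ± 0.10 SE, edgeR adjusted p = 0.798). *Irx3* was at 63.0 ± 2.71 and 62.1 ± 6.61 CPM (edgeR adjusted p = 0.955).

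The 13 tested genes of the optic vesicle and stalk had a median of 0.08, with 8 higher and 5 lower. *Mab21l2*, needed for growth of the retina and lens, had 22.4, 15.4 and 16.9 CPM in WT and 13.8, 14.2 and 14.3 CPM in mutants, with every mutant library under every WT library (log2 fold change -0.36 ± 0.13 SE, edgeR adjusted p = 0.4999). *Foxd1*, a ventral optic cup and periocular gene, had 23.8, 25.1 and 25.6 CPM in WT and 22.6, 23.0 and 22.5 CPM in mutants (log2 fold change -0.13 ± 0.05 SE, edgeR adjusted p = 0.551). *Tbx2*, a T-box factor of the dorsal retina and also of the heart, had 5.27, 6.66 and 8.81 CPM in WT and 8.74, 9.70 and 13.1 CPM in mutants (log2 fold change 0.61 ± 0.22 SE, edgeR adjusted p = 0.514). Its libraries with the lowest and highest levels, WT replicate 1 and mutant replicate 3, were also those with the lowest and highest cardiac sums, and the part of heart tissue in it was not tested. The abundant *Efnb2*, at 169 ± 9.39 and 180 ± 6.86 CPM, and *Nr2f2*, at 72.3 ± 7.99 and 69.4 ± 1.84 CPM, did not pass (edgeR adjusted p = 0.662 and 0.872).

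In the lens and placode ectoderm, which *Wnt1-Cre2* does not target, the 9 tested genes had a median of -0.03, with 3 higher and 6 lower. *Six4* had 62.4 ± 3.59 CPM in WT and 61.2 ± 2.73 CPM in mutants, and *Eya1* had 43.0 ± 6.42 and 44.2 ± 1.27 CPM (edgeR adjusted p = 0.911 and 0.933). The pituitary primordium list had 2 tested genes, both with negative differences and a median of -0.20. They were *Pitx1* at 12.1 ± 0.706 and 10.8 ± 0.840 CPM and *Lhx3* at 0.224 ± 0.125 and 0.179 ± 0.0558 CPM (edgeR adjusted p = 0.671 and 0.917).

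The 9 tested signals and antagonists had a median of 0.00, with 4 higher and 5 lower. *Sfrp1*, a secreted Wnt antagonist, was at 230 ± 5.17 CPM in WT and 224 ± 5.76 CPM in mutants, and *Bmp7* was at 34.5 ± 2.28 and 34.8 ± 2.10 CPM (edgeR adjusted p = 0.848 and 0.982). *Nog*, a BMP antagonist, had 5.93, 5.96 and 5.22 CPM in WT and 4.90, 4.57 and 4.90 CPM in mutants. Every mutant library was under every WT library, but the log2 fold change of -0.25 ± 0.11 (SE) had an edgeR adjusted p of 0.554.

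**Figure D4:**
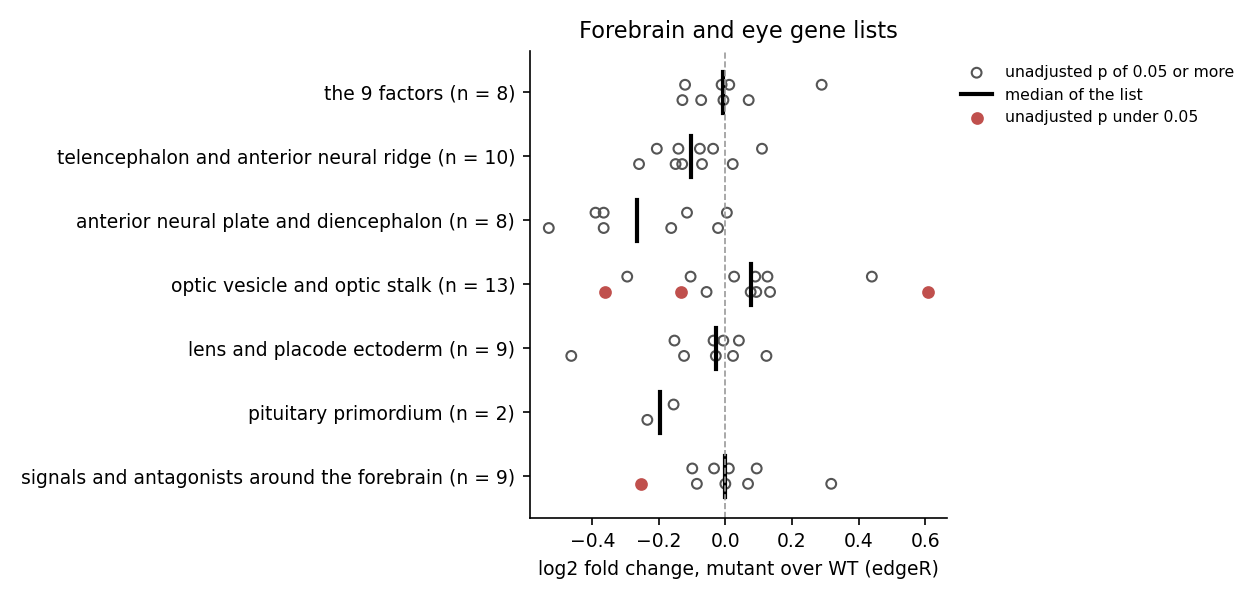
Log2 fold change of mutant over WT (horizontal axis, edgeR) of each tested gene in the 9-factor set and in the 6 lists of other forebrain and eye genes. Red points have an unadjusted p under 0.05 (1 higher, 3 lower), open points do not, and black bars are the list medians, the lowest being -0.26 for the anterior neural plate and diencephalon.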

How the data were processed

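RNA from E9.0 heads, depleted of ribosomal RNA, was made into stranded libraries and sequenced as paired 100-base reads. The authors trimmed the reads, aligned them to mm10 with STAR and counted reads per gene (HTSeq in the paper, featureCounts in the labels' tool list). Their gene annotation was an earlier Gencode release than the M21 used here. The deposited values are raw counts. Gene positions and lengths came from Gencode M21, which matched 23376 of 24421 symbols. Genes were filtered with filterByExpr (15584 kept), scaled by TMM and tested with edgeR's quasi-likelihood test (edgeR 4.0.16, R 4.3.3) on all 6 libraries with no covariate, in place of the study's DESeq2, which was run as an alternative (1.42.0). P-values were adjusted by Benjamini-Hochberg over all tested genes, with a threshold of 0.05. The test was checked on simulated data in which all genes had the same spread between libraries beyond counting noise. That check does not cover the wider spread of these factors. CPM for profiles were logged with a prior count of 2. With 3 libraries against 3, an exact permutation test could not go below p = 0.1. The edgeR p-values set the difference between groups against a spread between pools of heads, estimated with information from all tested genes.

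The 9 genes and the lists were chosen with earlier results of these data known. Named were the 9 genes, genes within 5 kb of one, the 2 most abundant genes of each list and those at an unadjusted p under 0.05, and the 5 genes closest in profile. Other genes named (*Snrpb*, *A3galt2*, *Egr2*, *Afp*, *Ttr*, *Raxos1*, *Gm28528*) serve as checks or examples chosen after their values were seen. Alternatives were other scalings, filters, DESeq2, a replicate block, a Y-linked covariate and leaving out each library. Some list genes and a sequence are not reported here, and the list sums and medians leave those genes out.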

Additional observations from a re-analysis of the deposited data

How the results depend on the processing

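No factor passed an adjusted p of 0.05 under any of the 7 alternatives with all libraries or the 6 fits with 1 library left out, nor did any of the other forebrain and eye genes. The smallest adjusted p of a factor was 0.439, and *Vax1* had none with DESeq2. Of 104 alternative fold changes, 88 kept their direction and 16 turned. With library size alone, *Six6* came to 0.000916 and *Pax6* to 0.00545 (log2). With a Y-linked covariate, *Rax* came to -0.0991 and *Vax1* to -0.0756, *Pax6* moved from -0.01 to -0.19 and *Lhx2* from -0.07 to -0.21, and the median of the factors to -0.12. The Y-linked genes were themselves higher in mutants (median log2 fold change 0.85). This covariate was thus partly tied to genotype, and the fit cannot fully separate the 2. With 1 library left out, the log2 fold change ranged from -0.29 to -0.01 for *Six3*, from -0.14 to 0.12 for *Six6*, from -0.0414 to 0.21 for *Rax*, from -0.19 to 0.18 for *Lhx2*, from -0.087 to 0.0371 for *Pax6*, from -0.0923 to 0.17 for *Vax1* and from -0.30 to 0.24 for *Emx2*. The count over all tested genes was 1 in the main test, 84 with DESeq2, 11 with no filter, 0 with the Y-linked covariate and 0 to 6 with 1 library left out (6 without WT replicate 1, 5 without mutant replicate 1). The cause was not tested.

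A replicate block on the labels' numbers gave a median of -0.01 and called 0 factors and 1 gene in all. Same-numbered WT and mutant libraries had correlations of 0.169, 0.0317 and 0.36 between their deviations from the group means. WT replicates 1 and 3 correlated best with the mutant library of the same number. WT replicate 2 correlated best with mutant replicate 1 (0.0386), close to its same-numbered value. No source used here states a pairing, so the main test took none and the block is given as an alternative. At 4 to 13 counts per library, depth limits *Vax2*.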

Other observations

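Lists of other regions and cell types were read in the same libraries, and no gene of them passed an adjusted p of 0.05 with edgeR or DESeq2, nor reached an unadjusted p of 0.05 with edgeR. The 7 midbrain and midbrain-hindbrain boundary genes had a median log2 fold change of -0.15, with *En2* at 37.3 ± 10.1 CPM in WT and 29.8 ± 4.28 CPM in mutants and *En1* at 24.9 ± 3.07 and 23.3 ± 4.90 CPM. The 6 hindbrain genes had a median of 0.32, all higher in mutants, with *Hoxb2* at 9.91 ± 4.75 and 12.4 ± 1.92 CPM and *Hoxa2* at 9.89 ± 2.17 and 11.8 ± 1.52 CPM, and WT replicate 1 was the lowest library for all 6.

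The 6 general neural progenitor genes were all lower in mutants and all highest in WT replicate 1, with a median of -0.20. *Nes* had 214 ± 25.1 and 186 ± 14.2 CPM (edgeR adjusted p = 0.606), and *Sox2* had 162 ± 7.63 and 150 ± 7.86 CPM (edgeR adjusted p = 0.632). The 7 neural crest genes had a median of 0.09, with 6 higher and 1 lower, among them *Ets1* at 140 ± 21.9 and 150 ± 5.49 CPM and *Twist1* at 72.5 ± 9.88 and 68.9 ± 6.36 CPM.

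The medians of the remaining lists were -0.11 for the erythroid, 0.65 for the cardiac, -0.04 for the endothelial and -0.96 for the visceral endoderm genes. The 6 erythroid genes summed to 1487 CPM in WT replicate 1, the highest library for 5 of them, and to 874 to 1208 CPM in the other libraries. *Hbb-bh1* had 516 ± 102 CPM in WT and 487 ± 81.6 CPM in mutants, and *Hbb-y* had 295 ± 143 and 250 ± 51.1 CPM. *Myh7* had 24.6 ± 15.6 and 35.7 ± 21.9 CPM, and *Actc1* had 10.7 ± 7.38 and 17.4 ± 9.94 CPM. *Kdr* had 94.9 ± 8.78 and 88.6 ± 10.8 CPM, and *Cdh5* had 40.6 ± 3.46 and 37.2 ± 2.17 CPM. *Apob* had 7.68 ± 6.11 and 3.89 ± 0.128 CPM, and *Rbp4* had 1.86 ± 0.819 and 1.63 ± 0.0856 CPM. Of the posterior *Hox* genes 1 of 7 was tested, *Hoxa10*, at 0.18 with 0.252 ± 0.236 and 0.316 ± 0.301 CPM, and *Hoxd9* was at 0.0772 ± 0.00789 and 0.0317 ± 0.0117 CPM. The Y-linked genes summed to 62.8 to 120 CPM in WT and 111 to 228 CPM in mutants. All 4 were higher in mutants, with a median log2 fold change of 0.85. *Ddx3y* was at 29.3 ± 9.91 and 54.5 ± 20.3 CPM (DESeq2 unadjusted p = 0.0332) and *Eif2s3y* at 22.1 ± 7.23 and 39.4 ± 15.4 CPM (DESeq2 unadjusted p = 0.0617). All ± values are SD with n = 3.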
